A study of Mus musculus with 24 samples.

Results

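The MHC class II genes and Ciita are described here in MIN6 cells, an insulin-producing line grown from a mouse insulinoma. The members were 7 genes chosen by symbol, and all 7 were listed among the 17696 genes of the series. Ciita is the class II transactivator, Cd74 is the invariant chain, H2-Aa, H2-Ab1 and H2-Eb1 encode chains of the I-A and I-E molecules that hold peptides at the cell surface, and H2-DMa and H2-DMb1 encode the alpha and beta chains of H2-M, which loads those peptides. RNA was sequenced from 24 libraries in 6 groups of 4. Scr cells carried a scrambled control construct, ZIP cells an antisense construct against miR-146a-5p, and OE cells a construct that overexpresses miR-146a-5p. All 3 lines were made with lentivirus, selected with puromycin and expanded from single clones, and the OE vector had another backbone and fluorescent protein than the vector of Scr and ZIP. A difference between lines therefore cannot be told apart from a difference between clones, and for OE also between vectors. The treated groups, Scr+Cy, ZIP+Cy and OE+Cy, received IL-1β at 5 ng/ml, IFNγ at 100 ng/ml and TNFα at 10 ng/ml for 24 h. The untreated groups, Scr, ZIP and OE, received no cytokines.

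MHC class II molecules present peptides from outside the cell to CD4+ T cells. They are made constitutively by dendritic cells, macrophages and B cells, whereas many other cells make them only after IFNγ, which acts through JAK kinases and IRF1 to switch on Ciita. CIITA protein does not bind DNA itself but joins a complex of RFX, CREB and NF-Y factors on class II promoters, where RFX contacts the X box and NF-Y the Y box. The invariant chain guides new class II molecules to endosomes and blocks their groove until it is cut, and H2-M then removes the last fragment. Class II on β cells is studied in type 1 diabetes, in which T cells attack these cells.

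The miRNA that the ZIP construct is directed against and the OE construct overexpresses is shown first, since both constructs were built on it. Its mature sequence in RefSeq (GRCm38.p6, chr11:43374435-43374456, minus strand) is printed with the seed, bases 2 to 8, in capitals. The libraries were made from mRNA and do not measure it.
mmu-miR-146a-5p: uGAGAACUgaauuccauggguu

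The members lie on chromosomes 16, 17 and 18 of mm10, with Cd74 on the last. The deposited table places Ciita at chr16:10480072-10527640, H2-DMa at chr17:34122832-34139101, H2-DMb1 at chr17:34153191-34160229, H2-Ab1 at chr17:34263227-34269418, H2-Aa at chr17:34282744-34287823 and H2-Eb1 at chr17:34305867-34316674, with H2-Aa on the minus strand and the others on the plus strand. Promoter windows of 300 bases, from 250 before to 50 after the annotated start, were found in RefSeq (GRCm38.p6) for 4 of the 7 members. The stretches upstream of the start shown here were printed because each holds an X half-site followed on the same strand by a Y box, the arrangement known from class II promoters. The Y box was spelled ATTGG. The X half-site was spelled AGCAAC in its first form. Its second form was AGTAAC with the third base changed. A further form was GGCAAC with another first base. The last form was GGTAAC with both of these changes. The motif letters are in capitals, and what to search for was chosen after the windows had been read.
H2-Aa, chr17:34287861-34287911, minus strand: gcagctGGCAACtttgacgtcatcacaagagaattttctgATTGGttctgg
H2-Eb1, chr17:34305769-34305818, plus strand: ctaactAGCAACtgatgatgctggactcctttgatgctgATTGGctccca
H2-DMb1, chr17:34153090-34153140, plus strand: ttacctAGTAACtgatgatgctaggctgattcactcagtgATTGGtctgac
The first base of the X half-site lay 82 bases before the start in H2-Aa, 92 in H2-Eb1 and 95 in H2-DMb1, and the distance from there to the first base of the Y box was 34, 33 and 34 bases. Of 32544 distinct promoter windows of the same length, 35.7% held an X half-site on either strand, 37.4% held a Y box on either strand, and 0.900% held the X half-site followed by the Y box at 20 to 40 bases. Because the spellings were chosen after the members' windows had been read, the last share does not measure how unusual their matches are. Neither of the H2-DMa windows held the pair. The RefSeq record of H2-DMa begins earlier, at chr17:34119693, and no window was found there. Which start these cells use was not tested, so an X and Y pair elsewhere at H2-DMa was not looked for. The window of H2-DMb2, a near-identical neighbour of H2-DMb1, held a Y box without an X half-site spelled in these letters. These matches describe letters and were not tested as binding sites.

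**Figure D1:**
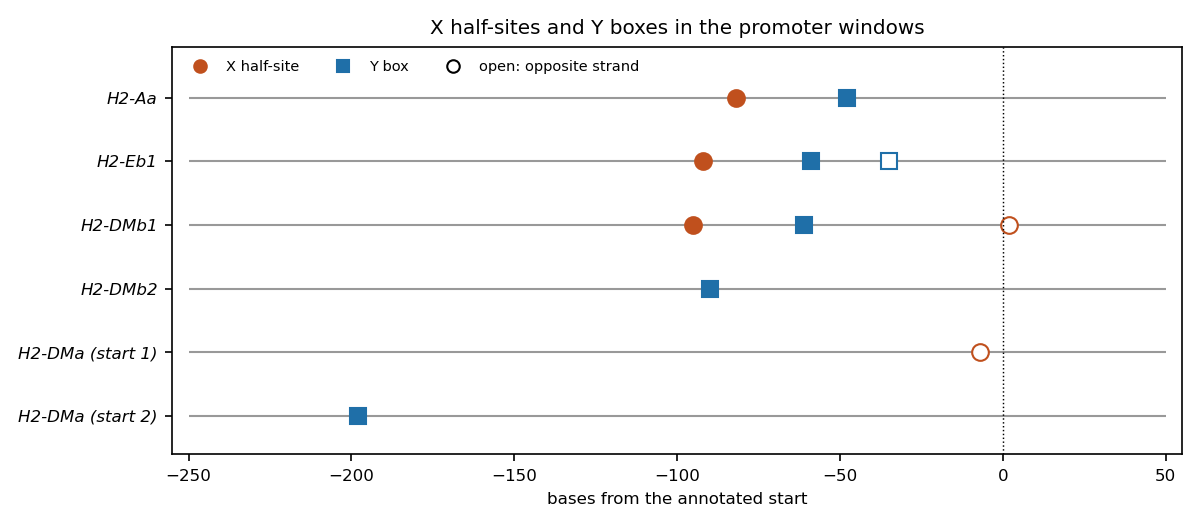
Positions of X half-sites (circles) and Y boxes (squares) in bases from the annotated start for 4 members and H2-DMb2, with open symbols on the strand opposite to the gene. H2-Aa, H2-Eb1 and H2-DMb1 hold an X half-site at -82, -92 and -95 followed by a Y box, whereas the H2-DMa windows, from 2 annotated starts, do not hold the pair. The first base of H2-DMa in RefSeq had no window.

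Before cytokines, all 7 members were low in all 3 lines, and H2-DMa was the best detected class II gene beside Cd74. Levels are given as CPM, a library's reads for a gene scaled to a common library size after TMM normalization. In Scr cells Ciita had 0.135, 0.0575, 0.375 and 0.124 CPM in replicates 1 to 4, which is 5, 2, 12 and 4 reads. H2-DMb1 had at most 2 reads in each Scr library and at most 1 in each OE library. H2-Ab1 had no read in any of the 4 OE libraries and in 3 of the 4 ZIP libraries. H2-DMa stood above the rest of the H2 genes, with 1.03, 1.32, 1.13 and 1.18 CPM in the Scr libraries.

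H2-DMa was also the member that differed between the untreated lines. It had 3.22, 2.48, 1.67 and 2.25 CPM in ZIP and 2.60, 2.23, 2.01 and 1.34 CPM in OE, and every library of both lines lay above all 4 Scr libraries. In edgeR's quasi-likelihood test across all genes its log2 fold change was 1.04 ± 0.32 (SE, n = 4 and 4, adjusted p = 0.0166) in ZIP versus Scr. In OE versus Scr it was 0.82 ± 0.32 (SE, n = 4 and 4, edgeR adjusted p = 0.0370). A gene was called when the Benjamini-Hochberg adjusted p was below 0.05 and the fold change at least 1.5. By that rule 1 of 7 members rose in ZIP, beside 6.29% of all genes, and 1 of 7 rose in OE, beside 10.4% of all genes. The ZIP call was lost without ZIP replicate 1 (log2 fold change 0.87, edgeR adjusted p = 0.0722). The OE call was lost without any one of 6 of the 8 libraries, at edgeR adjusted p values between 0.0569 and 0.110.

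The H2-Ab1 reads of the untreated cells ran the other way. The Scr libraries had 2, 17, 6 and 1 reads and the OE libraries 0, so that the groups did not overlap, with edgeR adjusted p = 0.130. DESeq2 called H2-Aa and H2-Ab1 lower in OE as well (adjusted p = 0.00203 and 0.000931), beside 2278 of 17696 genes called lower. With so few reads the size of these differences is poorly known.

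**Figure D2:**
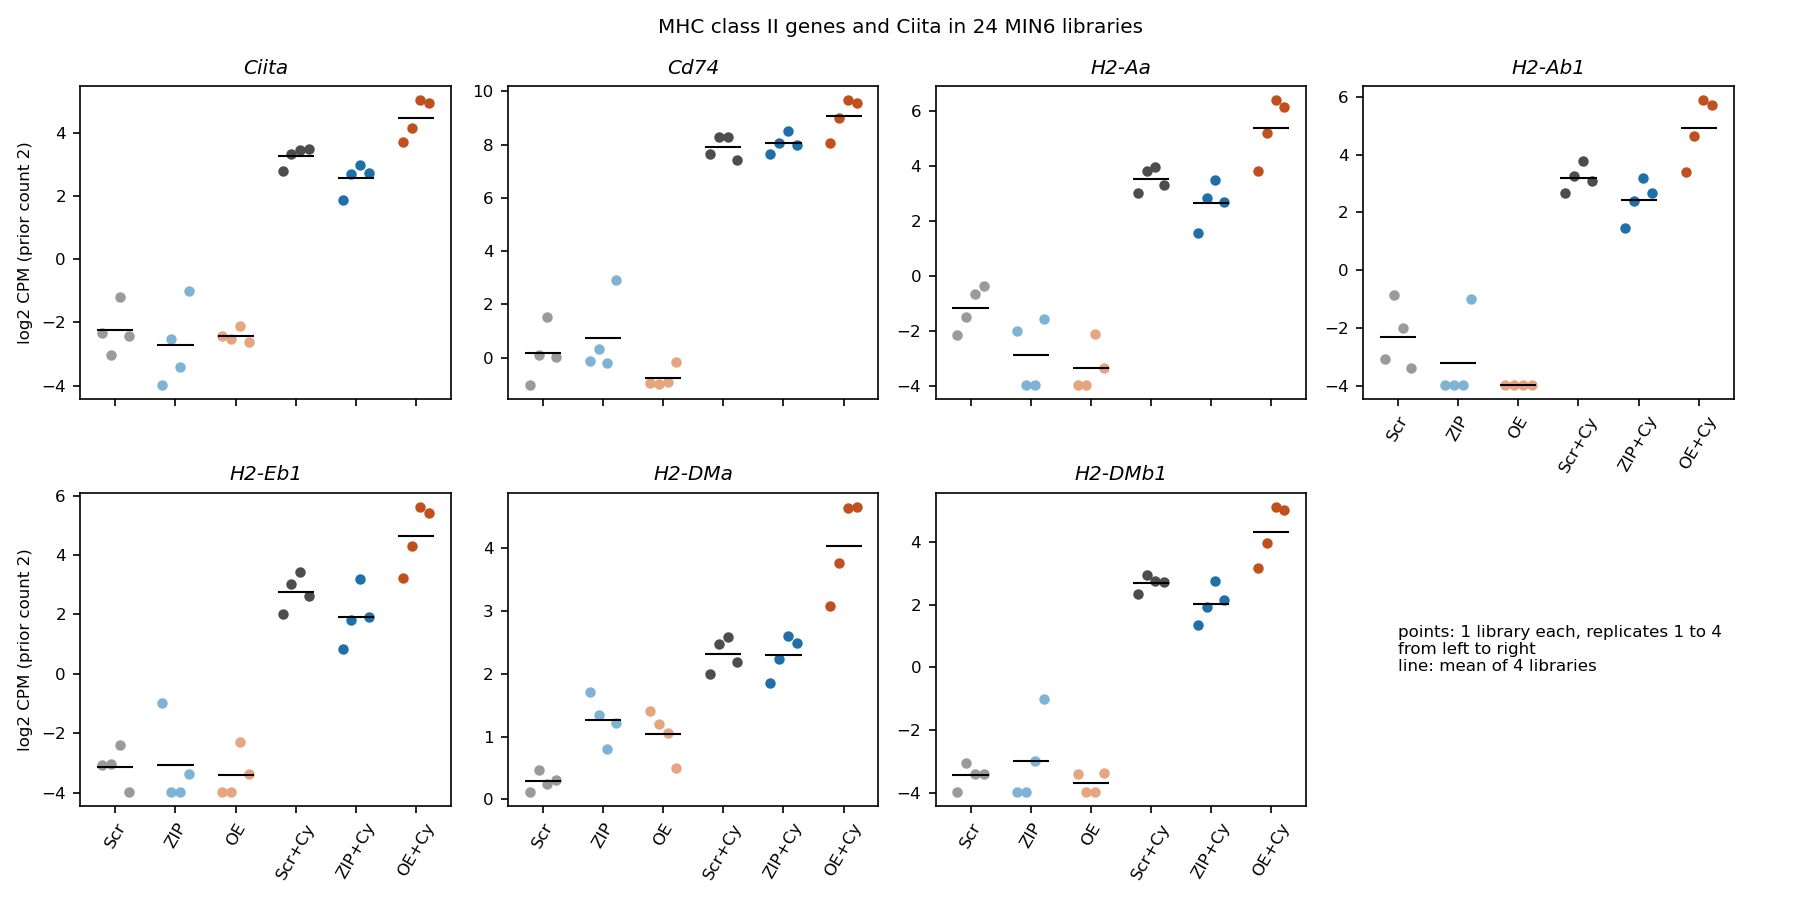
Level of each member in each of the 24 libraries, as log2 CPM with a prior count of 2. Points are libraries, replicates 1 to 4 from left to right within a group, and lines are group means. The 12 treated libraries lie above the 12 untreated ones for every member, and the OE+Cy means are the highest.

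With cytokines, all 7 members rose in all 3 lines. In Scr cells 7 of 7 were called higher, beside 5.96% of all genes. In ZIP cells 7 of 7 were called higher, beside 6.12%. In OE cells 7 of 7 were called higher, beside 11.8%. For each member and each line the 4 treated libraries lay above the 4 untreated ones. Each such comparison gave p = 0.0286 in a two-sided exact permutation test over unpaired libraries, the smallest that 4 against 4 can give. Libraries of the same number were taken as paired within each line, and a sign-flip test over 4 pairs can give no less than 0.125. With the replicate number as a block, edgeR also called 7 of 7 higher in each line.

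Ciita, the transactivator, went from the levels above to 6.96, 10.1, 10.9 and 11.2 CPM in the Scr+Cy libraries. Its log2 fold change was 5.82 ± 0.46 (SE, n = 4 and 4, edgeR adjusted p = 4.99e-10). In ZIP cells it rose from 0, 0.109, 0.0310 and 0.437 CPM to 3.60, 6.50, 7.86 and 6.64 CPM, a log2 fold change of 5.36 ± 0.50. In OE cells it rose from between 0.0982 and 0.165 CPM to 13.0, 18.0, 32.8 and 30.7 CPM, a log2 fold change of 7.53 ± 0.47. The OE+Cy libraries were all above the highest library of the other lines.

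Cd74, the invariant chain, was the most abundant member in every treated library. It had 201, 310, 316 and 171 CPM in Scr+Cy, against 0.432, 1.01, 2.84 and 0.960 CPM in Scr. The log2 fold change was 7.60 ± 0.55 (SE, n = 4 and 4, edgeR adjusted p = 9.34e-11). In ZIP+Cy it had 202, 265, 366 and 255 CPM, against 0.842, 1.20, 0.806 and 7.39 CPM without cytokines, and rose by a log2 fold change of 6.72 ± 0.51. In OE+Cy it had 268, 511, 812 and 755 CPM, against 0.453, 0.435, 0.469 and 0.819 CPM in OE, a log2 fold change of 10.09 ± 0.62. One untreated ZIP library, replicate 4, thus stood apart from its group. Without it the ZIP change was 8.17 for Cd74 and 6.94 for Ciita, each above the Scr value. Scr replicate 3, the highest untreated Scr library of both genes, moved the Scr changes in the same way, to 8.30 for Cd74 and 6.48 for Ciita without it.

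The genes of the surface chains rose with them. H2-Aa, the I-A alpha chain, reached 7.91, 13.9, 15.3 and 9.88 CPM in Scr+Cy from between 0.162 and 0.712 CPM, a log2 fold change of 4.79 ± 0.59. The ZIP+Cy libraries had 2.86, 6.95, 11.0 and 6.29 CPM of it, and the change was 5.87 ± 0.81. The OE+Cy libraries had 14.1, 36.4, 83.4 and 71.1 CPM, and the change was 9.86 ± 0.76. H2-Ab1, the I-A beta chain, reached 6.28, 9.44, 13.8 and 8.41 CPM in Scr+Cy and 2.69, 5.15, 9.16 and 6.35 CPM in ZIP+Cy, with log2 fold changes of 5.60 ± 0.72 and 5.66 ± 0.85. In OE+Cy it had 10.6, 24.9, 59.1 and 52.7 CPM against 0 reads in all 4 untreated libraries. Taking 3 reads per untreated library as the floor, it was at least 417-fold higher. H2-Eb1, the I-E beta chain, reached between 3.97 and 10.6 CPM in treated Scr cells, between 1.71 and 9.05 CPM in treated ZIP cells and between 9.38 and 48.9 CPM in treated OE cells. Its log2 fold changes were 6.84 ± 0.85, 5.26 ± 0.84 and 9.30 ± 0.82. The sizes of these changes rest on single libraries. ZIP replicate 4 held all H2-Ab1 reads of untreated ZIP cells, and without it the ZIP change was 10.51 for H2-Ab1 and 6.78 for H2-Aa. Without Scr replicate 2 the Scr change of H2-Ab1 was 6.67. For H2-Eb1 the ZIP change was 8.19 without ZIP replicate 1 and 4.67 without ZIP+Cy replicate 3. Without OE replicate 3 the OE change was 11.84 for H2-Aa and 11.07 for H2-Eb1. Each stayed called.

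The chains of the peptide loader H2-M rose by unlike amounts. H2-DMa reached 3.91, 5.48, 5.94 and 4.48 CPM in Scr+Cy, a log2 fold change of 2.08 ± 0.31 (SE, n = 4 and 4, edgeR adjusted p = 1.50e-05). In ZIP cells, where it started higher, its log2 fold change was 1.04 ± 0.29 (edgeR adjusted p = 0.00863), and in OE cells it was 3.12 ± 0.28. H2-DMb1 reached 5.08, 7.71, 6.79 and 6.55 CPM in Scr+Cy, which is 805 reads in the group against 4 in Scr, a ratio of 221 with a 95% counting interval of 86.0 to 813. In OE+Cy it had 2898 reads against 2 in OE, a ratio of 1611 with an interval of 446 to 13308. Those intervals come from exact binomial limits on the summed reads and cover counting error only. In ZIP+Cy it had between 2.48 and 6.67 CPM, a log2 fold change of 5.03 ± 0.61, or 7.32 without ZIP replicate 4. Reads that fit both H2-DMb1 and H2-DMb2 could have been split between them by the authors' quantification, and the H2-DMb1 values are uncertain to that extent. Of 8 symbols fixed for other class II chains, only 2 were listed, with H2-DMb2 among them. H2-DMb2 had no read in the 12 untreated libraries, between 0.0924 and 0.275 CPM in treated Scr libraries and between 0.174 and 1.64 CPM in treated OE libraries. In ZIP+Cy it had no read in 3 of 4 libraries and 0.0767 CPM in the other, and its rise there was not called.

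**Figure D3:**
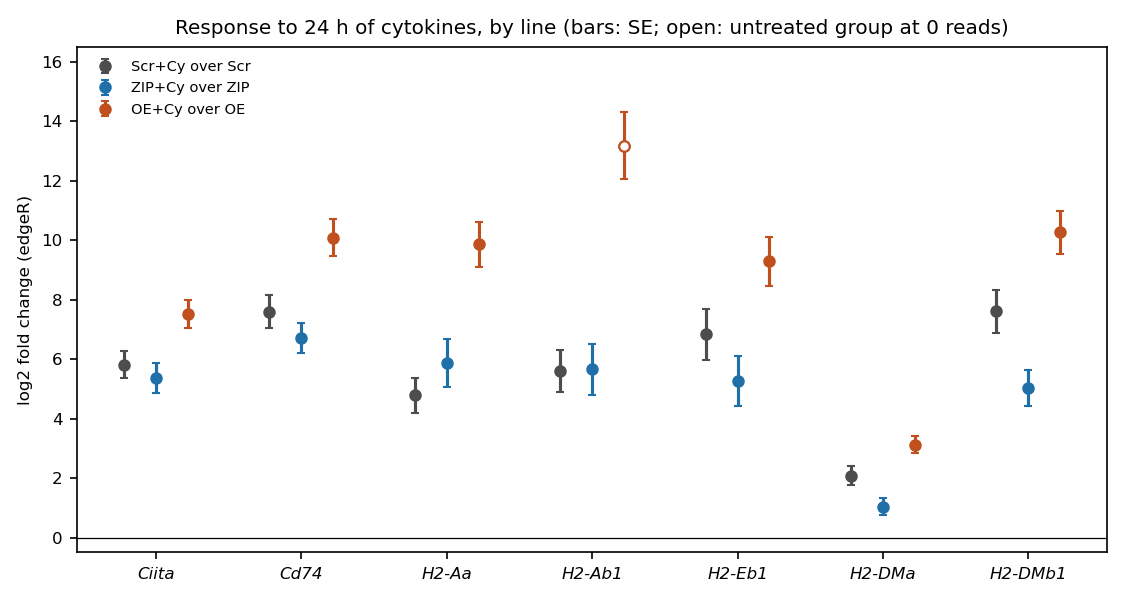
Log2 fold change of each member after 24 h of cytokines in each line, from edgeR, with bars of 1 SE. All 21 values are above 0, the OE values lie highest for every member, and H2-DMa has the smallest in each line. The open point for H2-Ab1 in OE has an untreated group at 0 reads, and its fitted value of 13.17 is no measure of the fold.

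The median log2 fold change over the 7 members was 5.82 in Scr and 5.36 in ZIP, against 0.00 and -0.01 over all genes. In OE it was 9.86 as fitted, or 8.80 with H2-Ab1 at its bound and H2-DMb1 at the lower end of its interval, against 0.02 over all genes.

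Per kilobase of exon, which allows genes to be compared, Cd74 was far above the others after cytokines. Treated Scr cells had 176 ± 52.3 CPM per kb (SD, n = 4), treated ZIP cells 192 ± 48.3 and treated OE cells 414 ± 176. H2-Aa came next at 10.4 ± 3.05, 6.01 ± 2.97 and 45.4 ± 28.2 CPM per kb, so that Cd74 exceeded it 16.9-fold, 32.0-fold and 9.12-fold. In Scr+Cy and ZIP+Cy the order went on with H2-Ab1, H2-DMb1, H2-Eb1, H2-DMa and Ciita. In OE+Cy H2-Eb1 and H2-DMb1 changed places, at 16.8 ± 10.3 and 16.4 ± 9.08 CPM per kb. From H2-Aa down to H2-DMa, each neighbour in the order overlapped the next in its range over libraries. Ciita was lowest in each treated group, at 1.18 ± 0.234, 0.744 ± 0.219 and 2.86 ± 1.17 CPM per kb, and overlapped H2-DMa only in OE+Cy. The lengths joined all coding transcripts of GENCODE M21, whereas the paper counted reads on RefSeq transcripts. Genes with long joined exons, Ciita at 8260 bases and H2-DMa at 2668, may thus be ranked too low.

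Cd74 also took most of the members' reads. Among reads of the 7 members, Cd74 made up between 78.6% and 85.5% in treated Scr libraries, between 88.0% and 92.3% in treated ZIP libraries and between 74.1% and 80.6% in treated OE libraries. The means were 83.1% ± 3.14, 89.7% ± 1.90 and 77.4% ± 3.40 (SD, n = 4). All ZIP+Cy libraries lay above all Scr+Cy libraries (exact permutation p = 0.0286, adjusted over 2 comparisons 0.0571), whereas OE+Cy overlapped Scr+Cy (exact permutation p = 0.0857). Neither passed after adjustment, but 0.0286 is the smallest p that 4 against 4 can give. Adjusted over 2 comparisons, it passes only if both reach it. Against the Scr+Cy library of the same number, the share in ZIP+Cy was higher in 4 of 4, by 4.72 to 9.96 percentage points (exact sign-flip permutation p = 0.125, two-sided, the smallest that 4 pairs can give).

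Treated OE cells held more class II mRNA than treated Scr cells. All 7 members were called higher in OE+Cy versus Scr+Cy, beside 12.7% of all genes, with a median log2 fold change of 1.86 against 0.01 over all genes. Ciita differed by 1.28 ± 0.28 on the log2 scale (SE, n = 4 and 4, edgeR adjusted p = 0.000531), and the lowest OE+Cy library, at 13.0 CPM, was above the highest Scr+Cy library, at 11.2 CPM. H2-DMa differed by 1.86 ± 0.26 (edgeR adjusted p = 2.18e-06) and H2-DMb1 by 1.82 ± 0.35 (edgeR adjusted p = 0.000115), also without overlap. H2-Aa differed by 2.13 ± 0.39, H2-Eb1 by 2.07 ± 0.45, H2-Ab1 by 1.96 ± 0.44 and Cd74 by 1.23 ± 0.37, with edgeR adjusted p values between 7.34e-05 and 0.00679. For these 4 genes OE+Cy replicate 1 fell within the range of Scr+Cy. The exact permutation p was 0.0857 for Cd74 and 0.0571 for the other 3 genes. DESeq2 called 5 of 7 higher, beside 2105 of 17696 genes, with adjusted p = 0.0687 for Cd74 and 0.0691 for H2-Ab1. Leaving out any one library kept 7 of 7 in edgeR.

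The low library was low in the whole set. OE+Cy replicate 1 was the lowest of its group in 7 of 7 members, and the highest library held 2.53 to 5.93 times as much as the lowest, with H2-Aa at the top of that range. ZIP+Cy replicate 1 was the lowest of its group in 7 of 7 members too, with ratios of 1.70 to 5.29, and ZIP+Cy replicate 3 the highest in 7 of 7. Scr+Cy replicate 1 was lowest in 6 of 7, with ratios of 1.52 to 2.68, and Cd74 was the exception. The 9 genes of class I presentation varied less, with ratios of 1.12 to 1.56 in OE+Cy, although replicate 1 was lowest there in 9 of 9 as well.

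**Figure D4:**
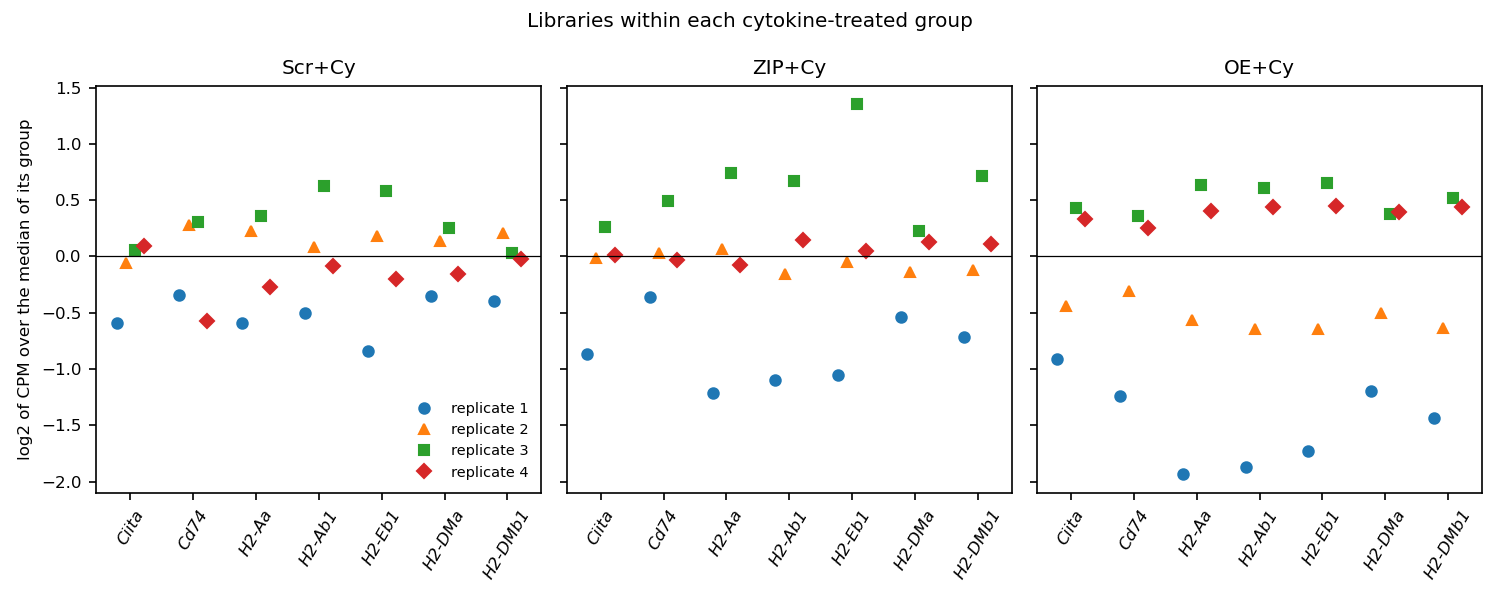
Each member's CPM in each treated library as log2 of its ratio to the median of its group. Replicate 1 (circles) is lowest in all members of ZIP+Cy and OE+Cy and in 6 of 7 of Scr+Cy, and OE+Cy shows the widest spread, up to 5.93-fold for H2-Aa.

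Genes of class I presentation were set beside the members in this comparison. The list held Nlrc5, the class I counterpart of Ciita, the heavy chain genes H2-K1 and H2-D1, B2m, Tap1, Tap2, Tapbp, Psmb8 and Psmb9. Cytokines raised 9 of 9 in each line, beside 5.96% of all genes in Scr, 6.12% in ZIP and 11.8% in OE. In OE+Cy versus Scr+Cy, where 2252 of 17696 genes were called higher and 2473 lower, edgeR called 0 of 9. It had 1 at an unadjusted p below 0.05, and DESeq2 called 0. The median log2 difference was 0.12, and the farthest from 0 was Tap2 at 0.50 ± 0.10. Nlrc5 had 172 ± 27.8 CPM in OE+Cy and 184 ± 21.7 CPM in Scr+Cy (SD, n = 4). Before cytokines 7 of 9 were called lower in OE than in Scr, beside 2376 of 17696 genes. By the interaction test of edgeR the response was larger in OE for 6 of 9, beside 9.64% of all genes. It was smaller for H2-K1, beside 1831 of 17696 genes. H2-K1 was not among the 7 called lower in untreated OE cells (240 ± 9.75 CPM in OE and 161 ± 15.4 CPM in Scr, SD, n = 4). The ratio of Ciita to Nlrc5 was tested within libraries. Its log2 value was -2.95 ± 0.403 in OE+Cy and -4.24 ± 0.140 in Scr+Cy (SD, n = 4), a difference of 1.29 (exact permutation p = 0.0286, adjusted over 4 ratio tests 0.0571). The log2 ratio of Cd74 to B2m differed by 1.47 (exact permutation p = 0.0286, adjusted 0.0571). These p values were the smallest that 4 against 4 libraries can give.

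In ZIP+Cy versus Scr+Cy the calls of members depended on whether libraries were paired by replicate number. In the unpaired fit edgeR called 0 of 7, with 1 at an unadjusted p below 0.05, and 12.6% of all genes in either direction. DESeq2, also unpaired, called 0. Ciita differed by -0.67 ± 0.29 on the log2 scale (SE, n = 4 and 4, edgeR adjusted p = 0.0958), H2-Aa by -0.80 ± 0.42, H2-Ab1 by -0.70 ± 0.46, H2-Eb1 by -0.70 ± 0.47 and H2-DMb1 by -0.60 ± 0.37. Cd74 differed by 0.13 ± 0.36 and H2-DMa by 0.00 ± 0.27. Libraries with the same replicate number deviated together in these groups, and with the replicate number as a block 5 of 7 were called lower, beside 7.16% of all genes. Under the block Ciita differed by -0.70 (edgeR adjusted p = 0.00497), H2-Aa by -0.90 (edgeR adjusted p = 0.00908), and H2-Ab1, H2-Eb1 and H2-DMb1 by -0.78, -0.81 and -0.69 (edgeR adjusted p = 0.0463, 0.0417 and 0.0417). Against the Scr+Cy library of the same number, Ciita in ZIP+Cy was 0.517, 0.646, 0.722 and 0.594 times as high, lower in 4 of 4. H2-Aa, H2-Ab1, H2-Eb1 and H2-DMb1 were lower in 4 of 4 as well, Cd74 in 1 of 4 and H2-DMa in 2 of 4. The ratio of Ciita to Nlrc5 differed by 0.04 on the log2 scale (exact permutation p = 0.800), beside Nlrc5 at 110 ± 7.35 CPM in ZIP+Cy (log2 difference -0.74 ± 0.22, edgeR adjusted p = 0.0112). DESeq2 did not call Nlrc5 (log2 difference -0.73, adjusted p = 0.264). The log2 ratio of Cd74 to B2m differed by 0.27 (exact permutation p = 0.371).

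**Figure D5:**
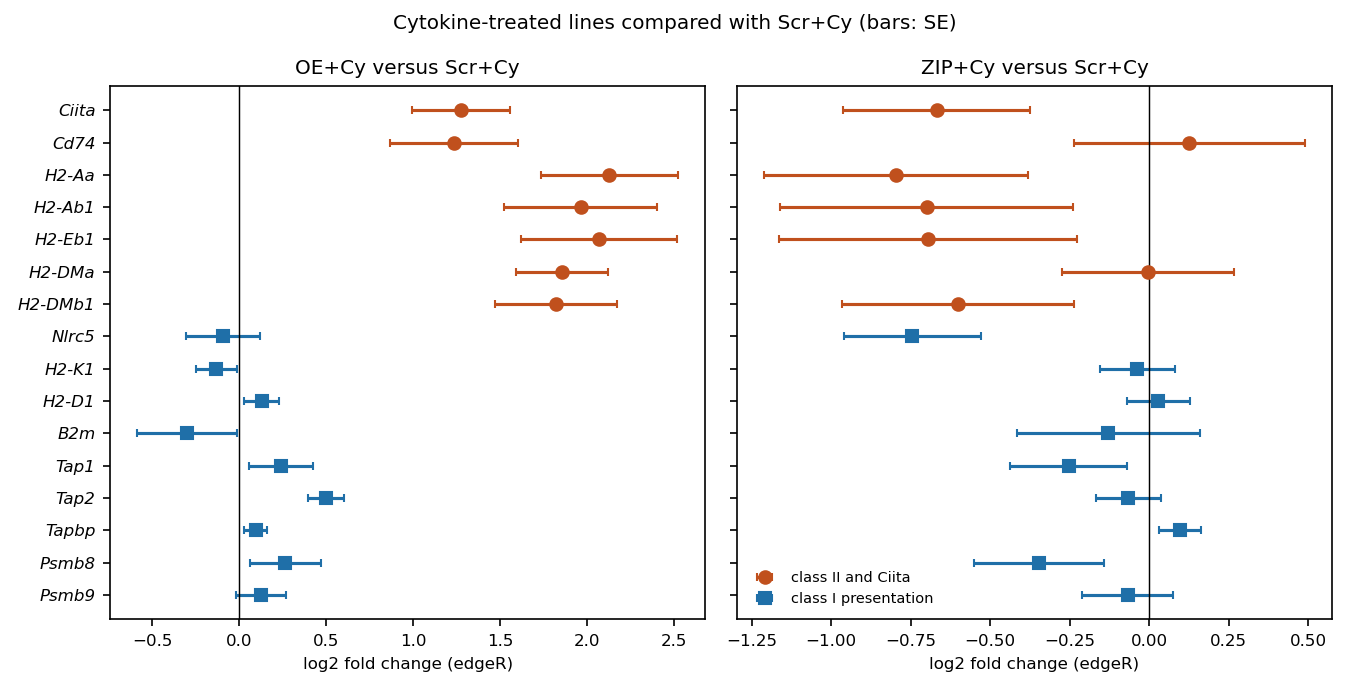
Log2 fold change with bars of 1 SE for the 7 members (circles) and the 9 genes of class I presentation (squares) in OE+Cy and in ZIP+Cy, each versus Scr+Cy. In OE+Cy the members lie between 1.23 and 2.13 and the class I genes between -0.30 and 0.50. In ZIP+Cy 5 members lie between -0.60 and -0.80, and Nlrc5 lies beside them at -0.74.

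Whether the cytokine response itself differed between lines was tested as an interaction, called at adjusted p below 0.05. Between ZIP and Scr 0 of 7 members were called by edgeR, with 1 at an unadjusted p below 0.05, DESeq2 called 0, and 0.0565% of all genes were called. Between OE and Scr only H2-Aa was called, with a difference of 5.07 ± 1.44 in log2 fold change (edgeR adjusted p = 0.0141), so that 1 of 7 rose beside 9.64% of all genes. Cd74 differed by 2.48 ± 0.95 (edgeR adjusted p = 0.0698). DESeq2 called 4 of 7 higher, beside 2059 of 17696 genes. With the replicate number as a block 3 of 7 were called, beside 12.1% of all genes, with Cd74 at 2.37 (edgeR adjusted p = 0.0450) and H2-Ab1 at 7.44 (edgeR adjusted p = 0.0102) added. The H2-Aa call was lost without Scr replicate 4 (log2 difference 4.72, edgeR adjusted p = 0.0513), and its value was 7.05 without OE replicate 3. Between OE and ZIP, Cd74, H2-DMa and H2-DMb1 were called, 3 of 7 beside 10.2% of all genes. DESeq2 called 7 of 7 higher there, beside 2137 of 17696 genes. With the block 5 of 7 were called, beside 12.9%, with Ciita at 2.10 (edgeR adjusted p = 0.0435) and H2-Ab1 at 7.38 (edgeR adjusted p = 0.0289) added. In a fit of only the 4 groups compared H2-DMb1 was not called (5.25, edgeR adjusted p = 0.0761). H2-DMa, the H2 gene with the most untreated reads, differed by 2.08 ± 0.40 (edgeR adjusted p = 0.000693). Without ZIP replicate 4, 1 of 7 was called, with Cd74 at a log2 difference of 1.92 (edgeR adjusted p = 0.126) and H2-DMb1 at 2.95 (edgeR adjusted p = 0.524). These differences rest on untreated groups with few reads.

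The steps from IFNγ to Ciita were read from a list of 11 genes. Cytokines raised 8 of 11 in Scr, 7 in ZIP and 8 in OE, beside 5.96%, 6.12% and 11.8% of all genes. Irf1, a factor that binds the Ciita promoter, had log2 fold changes of 3.86 ± 0.10, 3.75 ± 0.10 and 5.15 ± 0.11. Beside 12.7% of all genes, 4 of 11 were higher in OE+Cy versus Scr+Cy. They were Irf1 (0.83 ± 0.09), the receptor chain Ifngr2 (1.06 ± 0.11), Socs1, which restrains JAK signalling (1.59 ± 0.19), and Prdm1, a repressor of Ciita in plasma cells (1.64 ± 0.18). In ZIP+Cy versus Scr+Cy edgeR called 0 of 11, with 3 at an unadjusted p below 0.05, and DESeq2 called 0.

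Of the 7 factors that bind class II promoters, cytokines raised 1, beside 5.96% of all genes in Scr, 6.12% in ZIP and 11.8% in OE. That factor was Rfx5, a subunit of the RFX complex. It went from 23.8 ± 1.04 to 40.9 ± 2.71 CPM in Scr cells (SD, n = 4), a log2 fold change of 0.78 ± 0.06, with 0.74 ± 0.06 in ZIP and 1.00 ± 0.06 in OE. Rfxank, Rfxap, Nfya, Nfyb, Nfyc and Creb1 were not called in these comparisons. In OE+Cy versus Scr+Cy edgeR and DESeq2 called 0 of 7, with 4 at an unadjusted p below 0.05 in edgeR.

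Of 12 symbols fixed for loading and processing, 10 were listed. Ctss, the endosomal protease that trims the invariant chain, had no read in Scr or OE. Its level after cytokines was 0.352 ± 0.179 CPM in Scr cells, 1.97 ± 1.14 CPM in ZIP cells and 8.35 ± 4.84 CPM in OE cells (SD, n = 4). It was higher than in Scr+Cy in ZIP+Cy (log2 fold change 2.47 ± 0.61, edgeR adjusted p = 0.00526) and in OE+Cy (4.57 ± 0.61, edgeR adjusted p = 4.51e-06). Sppl2a, which clears the last membrane fragment of the invariant chain, rose in all 3 lines with log2 fold changes of 1.00 ± 0.07, 0.86 ± 0.07 and 0.79 ± 0.07. Marchf1, a ubiquitin ligase that removes class II from the surface, was called higher in OE (2.37 ± 0.54) and not in Scr (0.35 ± 0.60) or ZIP (-0.08 ± 0.59). Ifi30, a thiol reductase of endosomes, was called in OE (0.61 ± 0.10) and not in Scr (-0.04 ± 0.10). In OE+Cy versus Scr+Cy 3 of 10 were called higher, beside 12.7% of all genes, and 0 lower, with a median log2 difference of -0.33. Ctsb, Ctsl, Ctsd, Lgmn and Sppl2a had lower means there. They were 349, 175, 270, 86.3 and 123 CPM, against 433, 234, 366, 117 and 156 CPM in Scr+Cy. In ZIP+Cy Ctsb was at 653 CPM. Before cytokines 3 of 10 were called lower in OE than in Scr, beside 2376 of 17696 genes. Among costimulatory genes Cd40 rose in all 3 lines, to 7.48 ± 1.42 CPM in Scr, 17.4 ± 4.22 CPM in ZIP and 52.3 ± 14.5 CPM in OE cells. Cd80 was not called after cytokines in any line. Of 5 symbols fixed for Cd74 as a receptor for Mif, 4 were listed, and cytokines changed only Cd44 by the rule for calls, in all 3 lines. Cd44 rose by 2.27 ± 0.18 in Scr and 4.00 ± 0.17 in OE on the log2 scale. In ZIP it went from 13.1 to 61.6 CPM, beside 3.18 CPM in untreated Scr cells. In OE+Cy versus Scr+Cy Cd44 was called higher, and Mif (70.8 against 148 CPM) and Cxcr4 (0.353 against 0.892 CPM) lower.

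Over the 24 libraries the 5 genes most like Ciita by Pearson's r of log2 CPM, among 12663 genes that were not members and had a mean of at least 1 CPM, were Samd9l (0.991), Batf2, Apobec3, Herc6 and Rsad2 (0.984). For Cd74 they were Oasl2 (0.996), Irgm1, Irf7, Cfb and Gm4951 (0.992). Both rankings are set by the gap between treated and untreated libraries. Over the 12 treated libraries alone, a choice made after seeing the data, the 5 non-members closest to Ciita were Plin2 (0.981), Pml, Morn2, Mta1 and Lap3 (0.970). The members H2-DMb1 (0.984), H2-Aa (0.983), H2-Ab1 (0.980) and H2-Eb1 (0.974) stood as high, and Cd74 was at 0.836. These values describe libraries that share lines and groups.

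Other cells could carry class II genes, and markers were read for that reason. The libraries had 26657792 to 37168232 assigned reads, and the 10 β cell markers, with the insulin genes among them, summed to 15904 to 42184 CPM. With cytokines in OE 6 of these 10 were called lower and 0 higher, beside 1304 of 17696 genes called lower. In OE+Cy versus Scr+Cy 4 of 10 were called higher and 3 lower, beside 2252 and 2473 of 17696 genes. Pdx1, Mafa and Nkx6-1 had means of 337, 358 and 115 CPM in OE+Cy, against 768, 791 and 213 CPM in Scr+Cy. Of 22 markers of haematopoietic antigen presenting cells 17 were listed, and their summed level was 18.8 to 29.3 CPM in treated Scr, 12.9 to 15.1 CPM in treated ZIP and 7.29 to 10.7 CPM in treated OE libraries, against 10.5 to 33.0 CPM in untreated libraries. Within that sum C1qa was at 18.0 ± 3.29 CPM in treated Scr cells, 10.6 ± 1.48 CPM in treated ZIP cells and 4.15 ± 0.691 CPM in treated OE cells (SD, n = 4). The other 16 summed to 3.34 to 6.62 CPM, 1.89 to 5.98 CPM and 3.82 to 5.69 CPM in these groups, ranges that overlap. In OE+Cy versus Scr+Cy 2 of 17 were called higher, Cd14 (0.241 against 0.0154 CPM) and Cd79b (0.0787 against 0 CPM), and 3 were called lower, C1qa, Batf3 and Csf1r. These counts stand beside 12.7% of all genes called higher and 2473 of 17696 called lower. With cytokines Fcer1g was called higher in Scr, Zbtb46 and Cd79a were called higher and C1qa lower in OE, and in ZIP edgeR called 0 of 17, with 6 at an unadjusted p below 0.05, and DESeq2 called 1. In the 4 OE+Cy libraries 3 of 17 had no read, Csf1r, Tyrobp and Ptprc, which encodes CD45, whereas Scr+Cy had 4 of 17 without a read.

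Other cell types were read in the same way. Of 4 endothelial markers 2 were listed. Pecam1 was called higher with cytokines in each line and higher in OE+Cy (2.34 ± 1.10 CPM) than in Scr+Cy (0.699 ± 0.0767 CPM), and Tek was called higher with cytokines in OE and in OE+Cy versus Scr+Cy. Of 6 markers of other pancreatic cells 5 were listed. Krt19, a duct keratin, had no read in Scr or ZIP cells with or without cytokines, but 15.8 ± 2.35 CPM in OE and 19.7 ± 3.58 CPM in OE+Cy, and Sst and Ppy, islet hormone genes, were also called higher in OE+Cy than in Scr+Cy while Gcg was called lower. The part of these markers in the member levels was not tested. Beside 2473 of 17696 genes, all 4 fibroblast markers were called lower in OE+Cy than in Scr+Cy. They summed to 44.1 CPM in Scr+Cy replicate 1, 35.9 CPM in ZIP replicate 1 and 13.0 CPM in Scr replicate 1. ZIP+Cy replicate 3 held 0.690 CPM of the B cell gene Ms4a1 and 1.72 CPM of Lyz2. Without those 4 libraries the counts stayed at 7 of 7 for the cytokine response in each line and for OE+Cy versus Scr+Cy. The H2-DMa calls in the untreated lines were lost without them (edgeR adjusted p = 0.153 in ZIP and 0.0942 in OE). In ZIP+Cy versus Scr+Cy Ciita (-0.93, edgeR adjusted p = 0.0334) and H2-Eb1 (-1.47, edgeR adjusted p = 0.0224) were then called lower. In bulk libraries, more cells with class II mRNA and more of it per cell cannot be told apart.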

How the data were processed

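The 24 bulk mRNA libraries came from 3 stable lines of MIN6 cells with and without cytokines (6 groups of 4), with the group and the replicate number taken from the labels. The authors aligned reads to mm10 with STAR and quantified them in Partek (STAR 2.7.8a and Partek 11.0.24.0204 in the submitters' processing notes). The deposited values are estimated counts per gene, of which 30.3% were not whole, and genes under 10 reads in total had been removed by the authors. The deposited normalized table was not used. The strand setting is not given in the sources used here.

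Counts were rounded and all 17696 genes were fitted in edgeR 4.0.16 (R 4.3.3; quasi-likelihood test, TMM, 6 group means, 24 libraries) for 10 comparisons, 3 of them interactions. SE was taken as the log2 fold change over the square root of F. Exact permutation tests used log2 CPM with a prior count of 2. Fits were tested on simulated data. Depth was 26657792 to 37168232 assigned reads, and intervals cover counting error only. Exon lengths were unions over protein-coding transcripts of GENCODE M21.

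The members and gene lists were chosen with earlier results of these data known. The genes named are all members, genes of the lists, and the 5 genes most correlated with Ciita and with Cd74. The values of 1 gene of the lists are not reported here. The sample titles give each replicate number a tag of its own, shared by all groups, and do not say what it stands for. The labels do not say whether replicates were separate cultures, so p values may measure technical spread. Same-numbered libraries correlated in their deviations at 0.235 to 0.602 (Scr with Scr+Cy), 0.159 to 0.281 (ZIP with ZIP+Cy), 0.115 to 0.364 (OE with OE+Cy) and 0.130 to 0.247 (Scr+Cy with ZIP+Cy), each over 14535 genes, and were taken as paired there. Alternatives were DESeq2 1.42.0, its size factors in edgeR, filterByExpr (which kept 7 of 7 members), only the groups compared, the replicate block, other thresholds, and leaving out libraries.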

Additional observations from a re-analysis of the deposited data

Results flagged for a closer look

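Of 41 groups of 4 libraries with unequal values, 5 held a library far from the other 3. The rule marks about 1 in 20 groups of normally spread values, but the untreated groups hold few reads. A group with reads in only 1 library is always marked, so no excess over chance can be read from the 5. In ZIP replicate 4 Cd74 had 7.392 CPM (next highest 1.20 CPM), H2-Ab1 0.4368 CPM (next 0) and H2-DMb1 0.4368 CPM (next 0.0620 CPM). This library was above the other 3 untreated ZIP libraries in 5 of 7 members and in 9 of 9 genes of class I presentation, with B2m at 96.5 CPM against 21.9 to 34.3 CPM, and Cd74 there was 2.71% of its mean in ZIP+Cy. Cd74 had 0.8187 CPM in OE replicate 4 (next 0.469 CPM). H2-Eb1 had 0.4391 CPM in ZIP replicate 1 (next 0.0336 CPM), the library with 35.9 CPM of fibroblast markers, whose part in the value was not tested.

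The cytokine response differed between lines by an interaction test in edgeR for 4 values. On the log2 scale H2-Aa responded by 5.073 more in OE than in Scr. Against ZIP, Cd74 responded by 3.367 more in OE, H2-DMa by 2.082 more and H2-DMb1 by 5.246 more.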

How the results depend on the processing

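Of 1197 log2 fold changes of members under an alternative, 1110 kept their direction and their side of the threshold, 19 fell below it, 34 rose above it and 34 changed direction. Those 34 were called neither in the reported fit nor under the alternative. Leaving out 1 library in turn gave log2 values for ZIP versus Scr from -1.79 to 0.47 for Ciita, -0.44 to 1.72 for Cd74, -5.61 to 0.31 for H2-Ab1, -2.05 to 1.47 for H2-Eb1 and -0.31 to 2.48 for H2-DMb1. In the ZIP interaction it gave -1.13 to 1.13 for Ciita, -1.59 to 0.56 for Cd74, -1.01 to 4.91 for H2-Ab1 and -2.17 to 1.37 for H2-Eb1. In OE versus Scr it gave -0.72 to 0.26 for Ciita and -2.17 to 0.20 for H2-Eb1, and in ZIP+Cy versus Scr+Cy -0.050 to 0.26 for Cd74 and -0.11 to 0.14 for H2-DMa. H2-DMa in ZIP+Cy versus Scr+Cy was also 0.0080 in DESeq2, 0.0089 with its size factors, 0.00025 with filterByExpr and 0.0068 with only the groups compared. All 7 members stayed called higher after cytokines in each line under each alternative run; in OE+Cy versus Scr+Cy DESeq2 called 5. With the study's unadjusted p, 1 member was called in ZIP+Cy versus Scr+Cy, 1 in the ZIP interaction, 4 in the OE interaction and 5 in OE against ZIP. DESeq2 called 3 in OE versus Scr, 4 in the OE interaction and 7 in OE against ZIP. With the replicate block, 3 were called in OE versus Scr, 5 in ZIP+Cy versus Scr+Cy, 3 in the OE interaction and 5 in OE against ZIP. The numbers were not taken as pairs in OE versus Scr (lowest r -0.08), ZIP versus Scr (0.05) or OE+Cy versus Scr+Cy (0.00), and the block changed no other count. A fit of only the groups compared called 4 in OE versus Scr, 1 in ZIP+Cy versus Scr+Cy, 2 in the OE interaction and 2 in OE against ZIP. Leaving out 1 library in turn gave 0 to 1 in ZIP versus Scr, 0 to 1 in OE versus Scr, 0 to 4 in the OE interaction and 1 to 4 in OE against ZIP. Without the 4 libraries with marker reads of other cells, chosen after seeing the data, 0 were called in ZIP versus Scr, 0 in OE versus Scr and 2 in ZIP+Cy versus Scr+Cy. Direction changed there for Ciita (0.065) and H2-Eb1 (-2.09) in ZIP versus Scr, Cd74 (-0.13) in ZIP+Cy versus Scr+Cy, and H2-Ab1 (-0.42) and H2-Eb1 (0.62) in the ZIP interaction. The cause of these moves was not tested. Untreated levels of a few reads limit every comparison that uses them.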
